A study of Mus musculus with 8 samples.

Results

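Osteopontin, the secreted phosphoprotein encoded by Spp1, and CD44, a cell surface receptor for it, were examined in 4 mouse tumor cell lines. The genes were taken by symbol, as 2 of the 18768 genes in the deposited expression table, and were chosen with earlier results of these data known. RNA was sequenced from 2 libraries of each line, 8 libraries in all. The lines MC010 and MC011 are labelled IRF8 KO and, per the study's methods, came from mice in which Irf8, the gene of the transcription factor IRF8, was knocked out. MC654 and MC659 are labelled WT and came from C57BL/6 mice without that deletion. All 4 lines are fibrosarcomas that arose after a subcutaneous injection of methylcholanthrene (MCA), a chemical carcinogen, and were passaged at length in culture before use, with no treatment of the cells given in the labels. Ages of the mice are not given in the sources used here. Each line stands for 1 tumor, so the 2 libraries of a line are not separate tumors, and 4 libraries against 4 by label are 2 lines against 2. Nothing in the sources says whether the 2 libraries of a line came from separate cultures. P-values between lines measure only the spread between these libraries, which may be technical. P-values by label also take in the difference between the 2 lines of a label, but treat the 4 libraries as if they were separate tumors.

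Libraries held 74063616 to 116206078 counts on genes, and the 2 libraries of every line correlated with an r of 0.994 across genes. Irf8, the targeted gene, had 442 and 347 counts in MC010, 32 and 10 in MC011, 1 and 2 in MC654, and 1 and 0 in MC659. Irf8 RNA was therefore higher under the label IRF8 KO. Counts over the whole gene do not show whether reads fell in the part that was deleted, so they neither check nor contradict the label, and the study's methods describe PCR genotyping of the 4 lines. Lines are referred to by label only. Vim, the mesenchymal filament gene, had line means of 4661 to 7053 CPM, which are counts rescaled by the size of each library. Ptprc, the pan-leukocyte marker CD45, had 18 and 13 counts in MC010 and at most 2 counts in any other library.

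Osteopontin is an acidic glycoprotein of bone matrix that is also made by macrophages, wounded tissue and many tumors. It binds integrins through an arginine-glycine-aspartate motif and CD44 through other parts of the protein, and it supports adhesion, migration and survival. It can also act on T cells through CD44. CD44 is best known as the receptor for hyaluronan, the large sugar polymer of the pericellular matrix. Its transcript is spliced into a standard form and longer forms that carry variant exons, and its intracellular tail is linked to the cytoskeleton by ezrin-family proteins and ankyrins. IRF8 is a DNA-binding regulator, so the promoter of each gene is shown before the values, followed by the codons through which osteopontin meets its integrin receptors.

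Spp1 (ENSMUSG00000029304) lies on the plus strand of chromosome 5, from 104435118 to 104441050 of mm10. Cd44 (ENSMUSG00000005087) lies on the minus strand of chromosome 2, from 102811141 to 102901665. The 250 bases before the RefSeq start of each gene (GRCm38.p6) are printed 5′ to 3′ on the strand of the gene, with capitals for the matches to the motifs spelled out afterwards.
Spp1 promoter, chr5:104434861-104435110 (+): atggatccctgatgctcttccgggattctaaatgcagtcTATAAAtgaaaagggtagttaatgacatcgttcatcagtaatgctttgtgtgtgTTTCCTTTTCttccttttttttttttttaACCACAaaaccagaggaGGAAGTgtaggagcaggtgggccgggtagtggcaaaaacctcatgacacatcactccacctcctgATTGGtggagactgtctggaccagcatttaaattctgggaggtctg
Cd44 promoter, chr2:102901666-102901915 (-): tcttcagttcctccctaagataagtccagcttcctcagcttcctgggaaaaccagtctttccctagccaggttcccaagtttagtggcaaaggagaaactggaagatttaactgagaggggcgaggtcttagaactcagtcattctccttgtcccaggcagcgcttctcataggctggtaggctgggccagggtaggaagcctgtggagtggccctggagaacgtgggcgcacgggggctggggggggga

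Motifs were searched on both strands, and the share of 32851 RefSeq promoter windows of the same length that held each is given beside it. The Spp1 window held 1 match to the IRF motif GAAANNGAAA, on the opposite strand from 157 to 148 bases before the start, and 2.98% of all windows held one. It also held the RUNX motif TGTGGT on the opposite strand, from 128 to 123 bases before the start (14.0% of windows). The ETS motif GGAAGT was on the same strand as the gene, from 111 to 106 bases before the start (19.7%). CCAAT was found on the opposite strand, from 46 to 42 bases before the start (33.8% of windows). TATAAA was found on the same strand, from 211 to 206 bases before it (12.4%). The Cd44 window held none of these. Neither window held the composite ETS-IRF motif GGAANNGAAA (2.30% of windows), the AP-1 motif TGANTCA (6.75%) or the SP motif GGGCGG (32.7%). The 4-letter core GAAA was present 3 times in each window and in 86.4% of all windows, and is not capitalized on its own. A match is a match of letters only, and binding was not measured.

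The integrin-binding codons of osteopontin are in exon 6 of the 7 exons of transcript Spp1-201, shown here because several of the integrins described as receptors, such as those with the alpha V, alpha 5 or alpha 8 chain, bind the protein through them. The capitals mark the arginine, glycine and aspartate codons, at 104439481 to 104439489 of chromosome 5.
Spp1 exon 6, chr5:104439460-104439519 (+): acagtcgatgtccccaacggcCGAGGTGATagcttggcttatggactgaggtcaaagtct

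Of the 7 annotated Spp1 transcripts, 4 have a complete coding sequence, all of 882 to 885 bases. Of the 9 annotated Cd44 transcripts, 8 are coding, with 9 to 19 exons and coding sequences of 1095 to 2340 bases. Counts per gene add the standard and the variant forms of Cd44, and which form a line made is not analysed here. Gm42793 overlaps the start of Spp1 on the same strand, so reads of that stretch could be assigned to either gene or to neither. It had 28 to 289 counts per library, against 30384 to 167169 for Spp1.

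Spp1 was abundant in 3 lines and lower in the fourth. Its raw counts were 167169 and 108896 in MC010, 33461 and 30384 in MC011, 103724 and 111111 in MC654, and 102080 and 105688 in MC659. After TMM normalization for library size, Spp1 was at 1462 and 1482 CPM in MC010, 347 and 385 CPM in MC011, while MC654 had 1243 and 1307 CPM and MC659 had 1157 and 1175 CPM. Both MC011 libraries lay below every other library, and both MC010 libraries lay above every WT-labelled library, so that the libraries labelled IRF8 KO enclosed those labelled WT. The MC011 mean of 366 CPM was 3.34-fold below the mean of the WT-labelled libraries, and the MC010 mean of 1472 CPM was 1.21-fold above it. MC010 was 4.02-fold above MC011. The 2 libraries of a line differed by 1.35% in MC010, 10.3% in MC011, 5.05% in MC654 and 1.56% in MC659. The counting error of a single library was 0.245% to 0.574%, which does not include library preparation.

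By label, Spp1 averaged 919 ± 639 CPM (SD, n = 4 libraries) in the lines labelled IRF8 KO and 1221 ± 68.9 CPM (SD, n = 4 libraries) in those labelled WT. The log2 fold change was -0.41 (SE 0.49, 95% interval -1.53 to 0.71), with an adjusted p of 0.547 from edgeR's quasi-likelihood test over the 15153 genes tested. It was not called at the thresholds of the study, an adjusted p under 0.05 with an absolute log2 fold change over 0.59, which 22.5% of all tested genes passed. An exact two-sided permutation test over the libraries gave p = 0.429, where the smallest p for 4 against 4 is 0.0286. The direction rested on MC011. Without that line the log2 fold change was 0.26 and without MC010 it was -1.76, on opposite sides of 0.

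Cd44 was higher in both lines labelled IRF8 KO. Its raw counts were 149335 and 101861 in MC010, 97547 and 82502 in MC011, 64380 and 67890 in MC654, and 63032 and 62605 in MC659. These were 1306 and 1386 CPM in MC010, 1012 and 1044 CPM in MC011, while MC654 had 772 and 799 CPM and MC659 had 714 and 696 CPM. All 4 libraries labelled IRF8 KO lay above all 4 labelled WT, and the lines followed the order MC010, MC011, MC654, MC659 with no overlap between neighbours. How many of all genes separate by label in this way was not counted, and genes that were not called, such as Rdx and Mmp14, also did. The MC010 mean was 1.81-fold the mean of the WT-labelled libraries. Unlike Spp1, Cd44 in MC011 was not below the WT-labelled lines, with a mean of 1028 CPM against 785 CPM in MC654 and 705 CPM in MC659.

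By label, Cd44 averaged 1187 ± 187 CPM (SD, n = 4 libraries) under the label IRF8 KO and 745 ± 48.2 CPM (SD, n = 4 libraries) under the label WT. The log2 fold change was 0.67 (SE 0.11, 95% interval 0.41 to 0.93), with an adjusted p of 0.00269 from edgeR, and Cd44 was called. Of all tested genes, 13.7% were called higher in this comparison and 8.72% lower. The exact two-sided permutation test over libraries gave p = 0.0286, the smallest it can give, and over line means the smallest p for 2 against 2 is 0.333. The call was lost when the counts of each line were added together, at a log2 fold change of 0.67 and an adjusted p of 0.160. It was also lost without MC010 replicate 2 (log2 fold change 0.58, under the fold threshold), without the line MC010 (0.45) and without the line MC659 (0.59, adjusted p = 0.0597 from edgeR).

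**Figure D1:**
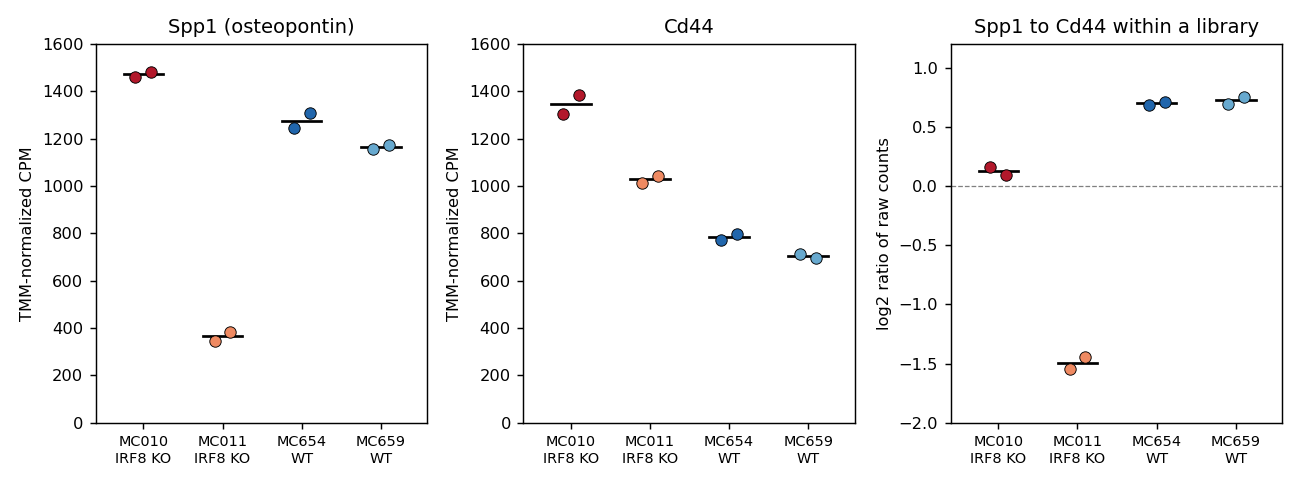
Levels of Spp1 and Cd44 (TMM-normalized CPM, left and middle) and the log2 ratio of their raw counts (right) in the 8 libraries of the 4 lines. Points are libraries and black bars line means. Spp1 is low in MC011 at 347 and 385 CPM, Cd44 is highest in MC010 at 1306 and 1386 CPM, and the ratio lies between 0.69 and 0.76 in all 4 libraries labelled WT.

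Between lines, Spp1 separated MC011 from each of the other 3. In a fit with a group for each line, Spp1 was higher in MC010 than in MC011 by 2.01 on the log2 scale (95% interval 1.90 to 2.12, adjusted p = 4.47e-14 from edgeR), a contrast in which 31.6% of tested genes were called. MC011 minus MC654 was -1.80 (95% interval -1.91 to -1.69), where 29.7% of genes were called, and MC011 minus MC659 was -1.67 (95% interval -1.78 to -1.56), where 30.3% were called. Spp1 passed both thresholds in each of these contrasts. MC010 minus MC654 was 0.21 and MC010 minus MC659 was 0.34, with adjusted p of 0.00166 and 1.98e-05 from edgeR, both under the fold threshold. MC654 and MC659 were neighbours that did not differ past the threshold, at 0.13 (95% interval 0.02 to 0.23, adjusted p = 0.0991 from edgeR).

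Cd44 passed both thresholds only where MC010 was set against a WT-labelled line. MC010 minus MC654 was 0.78 (95% interval 0.68 to 0.87) and MC010 minus MC659 was 0.93 (95% interval 0.84 to 1.03), in contrasts where 35.9% and 36.8% of tested genes were called. MC010 minus MC011 was 0.39, MC011 minus MC654 was 0.39 and MC011 minus MC659 was 0.54, each with an adjusted p from edgeR of at most 1.71e-06 but under the fold threshold. MC654 minus MC659 was 0.16 (adjusted p = 0.0279 from edgeR), in a contrast of the WT-labelled lines where 4.95% of genes were called. These contrasts share lines and are not independent of each other.

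**Figure D2:**
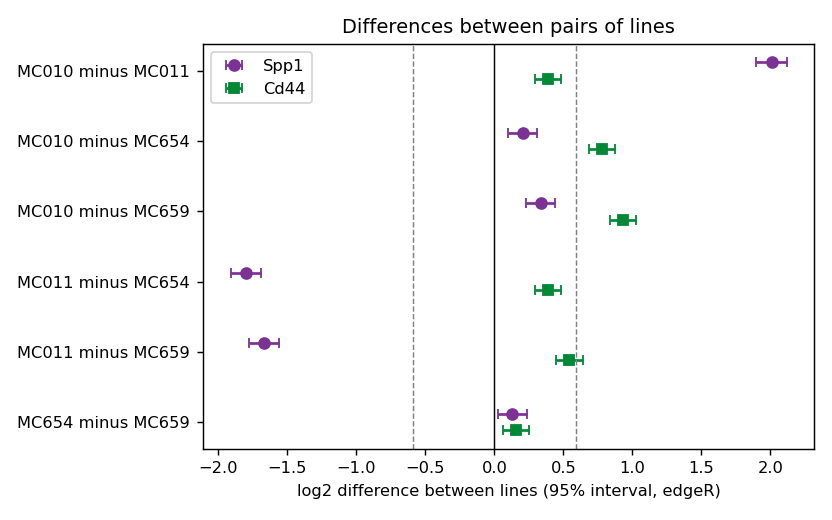
Log2 differences of Spp1 (circles) and Cd44 (squares) for the 6 pairs of lines, with 95% intervals from edgeR. Dashed lines mark the fold threshold of 0.59 in either direction. The 3 Spp1 contrasts with MC011 lie at 2.01, -1.80 and -1.67, and the remaining 3 between 0.13 and 0.34.

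The ratio of Spp1 to Cd44 within a library is free of scaling between libraries. The log2 ratio of raw counts was 0.16 and 0.10 in MC010, -1.54 and -1.44 in MC011, 0.69 and 0.71 in MC654, and 0.70 and 0.76 in MC659. All 4 ratios under the label IRF8 KO lay below all 4 under the label WT. How many pairs of genes separate by label in this way was not counted. The means were -0.68 ± 0.94 and 0.71 ± 0.03 (SD, n = 4 libraries each), a difference of -1.39. An exact two-sided permutation test over libraries gave p = 0.0286, the smallest it can give. Over line means the smallest p for 2 against 2 is 0.333. Without MC011 the difference was -0.58 and without MC010 it was -2.20. Both numerator and denominator entered it. Against MC654 and MC659, Cd44 in MC010 was higher by 0.78 and 0.93 on the log2 scale, and Spp1 by 0.21 and 0.34. In MC011 Spp1 differed from the same lines by -1.80 and -1.67, and Cd44 by 0.39 and 0.54.

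Levels of different genes were compared as CPM per kb of exon, with 1.648 kb for Spp1 and 6.776 kb for Cd44. On this scale Spp1 averaged 893 in MC010, 222 in MC011, 774 in MC654 and 707 in MC659. It ranked 22nd to 25th among 18736 genes with a length in MC010, MC654 and MC659, and 131st and 146th in MC011. Cd44 averaged 199, 152, 115.9 and 104 CPM per kb in the same order of lines and ranked between 172nd and 357th. Spp1 exceeded Cd44 per length in every library, by 4.60- and 4.40-fold in MC010, 1.41- and 1.51-fold in MC011, and 6.62- to 6.94-fold in the WT-labelled lines.

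Receptors of osteopontin other than Cd44 are integrins. Of the 10 receptor genes listed, 9 were tested, and 2 were called higher (Cd44 and Itga8) and 3 lower (Itgb1, Itgb3 and Itga5) in the lines labelled IRF8 KO. Over all genes tested, 13.7% were called higher and 8.72% lower, and these shares hold for every list counted by label below. The median log2 fold change of the 9 was 0.33, against 0.02 over all genes tested. Itgb1, the beta chain shared by most of these receptors, was at 741 and 788 CPM in MC010, 871 and 901 CPM in MC011, while MC654 had 1453 and 1548 CPM and MC659 had 1488 and 1431 CPM. The labels did not overlap, a trait whose share over all genes was not counted. The log2 fold change was -0.84 (SE 0.07, adjusted p = 0.000109 from edgeR). Itga5, whose product pairs with that of Itgb1 as the fibronectin receptor, was at 367 and 354 CPM in MC010, 312 and 311 CPM in MC011, while MC654 had 643 and 605 CPM and MC659 had 567 and 599 CPM. It was lower by label at -0.85 (SE 0.07).

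Itgb3, the beta chain of the vitronectin receptor, was the scarcest of the lower group, at 6.59 and 7.05 CPM in MC010, 9.26 and 10.1 CPM in MC011, while MC654 had 18.6 and 19.2 CPM and MC659 had 14.8 and 13.2 CPM. Its log2 fold change by label was -0.99 (SE 0.19, adjusted p = 0.00443 from edgeR). Itgav, the alpha chain that joins beta 3 or beta 5 to bind osteopontin, was at 191 and 205 CPM in MC010 and between 335 and 375 CPM in the other 6 libraries. It was called between MC010 and each other line (log2 difference -0.81 to -0.88) and not by label (-0.36, adjusted p = 0.221 from edgeR). MC010, where Cd44 was highest, thus had the lowest Itgav, and MC011, where Spp1 was lowest, had Itgav at the level of the WT-labelled lines. Itgb5 was between 117 and 191 CPM and was not called by label (0.33, adjusted p = 0.0669 from edgeR).

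The alpha chains that also bind osteopontin at low levels differed by line. Itga8 had 1561 and 1044 counts in MC010, 168 and 133 in MC011, and 2 to 7 counts in the WT-labelled libraries. Itga9, whose product binds osteopontin after thrombin cleavage, averaged 4.87 CPM in MC011, against 0.259 CPM in MC010, 0.800 CPM in MC654 and 0.718 CPM in MC659. Itga4 averaged 3.71 CPM in MC010 and 0.630 to 1.02 CPM in the other lines. Neither Itga9 nor Itga4 was called by label (adjusted p = 0.193 and 0.0974 from edgeR). Itgb6, the epithelial beta chain, had at most 10 counts per library and was not tested.

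**Figure D3:**
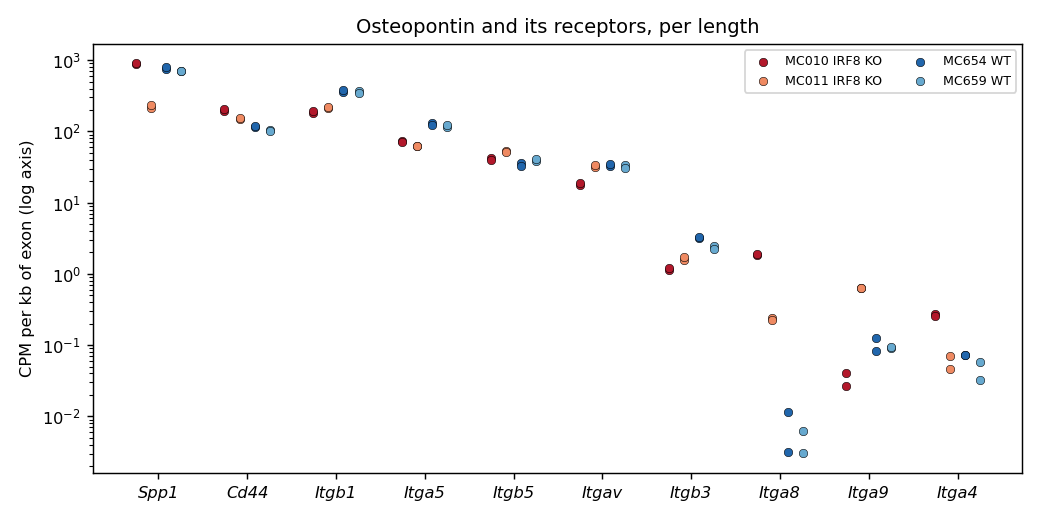
CPM per kb of exon, on a log axis, of Spp1, Cd44 and the 8 integrin chains tested, with a point for each library, colored by line. Cd44 and Itgb1 lie within a range of 103 to 379 CPM per kb in all libraries, and Itga8 falls from 1.85 and 1.93 in MC010 to at most 0.0114 in the libraries labelled WT.

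Over the 10 lists of osteopontin and CD44 pathway genes, chosen with earlier results of these data known, 69 genes other than Spp1 and Cd44 were listed, 61 were in the table and 56 were tested. By label, 12 (21.4%) were called higher and 8 (14.3%) lower, and 36 were not called. Over all genes tested, 13.7% were called higher and 8.72% lower. When the counts of each line were added together, leaving 2 sums against 2, edgeR called 0 of the 56 genes and 0 genes in all, with 22 and 3361 at an unadjusted p under 0.05. With a random term for the line, limma-voom called 9 higher and 7 lower. Every call by label given for a single gene, the receptors included, is from the fit over 8 libraries and was lost with the sums. The median log2 fold change of the 56 genes was 0.13.

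Among enzymes that cleave or modify osteopontin, 7 of 10 were tested, with Mmp3 and Mmp9 called higher and Mmp2 called lower. Mmp3, a stromelysin that cuts osteopontin near its integrin-binding site, had 3801 to 6298 counts under the label IRF8 KO and 1 to 8 counts under the label WT. Mmp9, a gelatinase, averaged 2.59 CPM in MC010, 3.10 CPM in MC011, 0.280 CPM in MC654 and 0.202 CPM in MC659 (log2 fold change 3.55, SE 0.35, adjusted p = 0.000186 from edgeR). Mmp2, the other gelatinase, ran the opposite way, with 268, 209, 611 and 575 CPM in the same order of lines (-1.31, SE 0.10). Fam20c, the kinase that phosphorylates secreted proteins such as osteopontin, was at 0.671 CPM in MC010 and 5.36 to 6.25 CPM in the other lines, and was not called by label (adjusted p = 0.492 from edgeR). Tgm2, a transglutaminase that crosslinks osteopontin, averaged 4.75 CPM in MC010 and 8.92 to 14.97 CPM elsewhere, with an adjusted p by label of 0.236 from edgeR. Plau and Acp5 were not called by label either.

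Of 12 regulators of Spp1 transcription, all were tested, 3 were called higher by label (Irf8, Jun and Fosl1) and none was called lower. Runx2, the osteoblast master regulator, was at 123 and 120 CPM in MC010, 59.9 and 61.7 CPM in MC011, while MC654 had 101 and 103 CPM and MC659 had 105 and 97.7 CPM. Like Spp1, Runx2 was lowest in MC011, with log2 differences of 1.00 for MC010 minus MC011 and -0.74 for MC011 against each WT-labelled line, all called, and it was not called by label (-0.16, adjusted p = 0.657 from edgeR). Sp7, a later osteoblast regulator, had at most 37 counts per library. Fosl2, an AP-1 subunit, was also highest in MC010 at 299 CPM and lowest in MC011 at 161 CPM, with 181 CPM in MC654 and 180 CPM in MC659. Jun averaged 190, 225, 130 and 82.1 CPM in MC010, MC011, MC654 and MC659 (0.97, SE 0.19), and Fosl1 averaged 197, 218, 130 and 98.2 CPM (0.86, SE 0.12). The line means of Jun and Fosl1 were highest in MC011, where Spp1 was lowest, and next highest in MC010, where Spp1 was highest. Fosl1 libraries of these lines overlapped, at 206 and 188 CPM in MC010 and 231 and 205 CPM in MC011. The part of Runx2, Fosl2, Jun or Fosl1 in the Spp1 level was not tested. Ets1, Sp1, Junb, Fos, Hif1a and Nr1h3 were not called by label.

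Around CD44, the hyaluronan list had 7 genes, all tested, with Has3 and Cemip called higher and Has2 lower. Has2, a hyaluronan synthase, averaged 23.9 CPM in MC010, 22.2 CPM in MC011, 39.0 CPM in MC654 and 39.3 CPM in MC659 (-0.76, SE 0.07). Has3, another synthase, averaged 7.91 CPM in MC010, 0.967 CPM in MC011, 0.826 CPM in MC654 and 0.431 CPM in MC659. Has1 averaged 1.72, 12.6, 30.6 and 22.4 CPM in the same order and was not called by label (-1.89, adjusted p = 0.0649 from edgeR), although each IRF8 KO-labelled line was called below each WT-labelled line. Cemip, which takes part in hyaluronan breakdown, averaged 6.69, 3.10, 0.364 and 0.443 CPM (3.60, SE 0.44). Of the other hyaluronan receptors, 3 of 5 were tested and Stab1 was called higher, at 3.49 CPM or less in every line mean, while Hmmr and Layn were not called.

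Other ligands of CD44 moved in opposite directions, with 1 higher (Vcan) and 2 lower (Acan and Fn1) of 4 tested. Acan was scarce, with 4 to 22 counts per library under the label IRF8 KO and 47 to 205 under the label WT. Vcan, a hyaluronan-binding proteoglycan, was at 657 and 712 CPM in MC010, 833 and 796 CPM in MC011, while MC654 had 173 and 181 CPM and MC659 had 182 and 169 CPM (2.09, SE 0.08, adjusted p = 3.06e-06 from edgeR). Fn1, fibronectin, averaged 1153 CPM in MC010, 2021 CPM in MC011, 7956 CPM in MC654 and 7991 CPM in MC659 (-2.33, SE 0.22, adjusted p = 0.000159 from edgeR). The labels did not overlap for either gene, which also held for genes that were not called, such as Sp1 and Junb. Fn1 encodes a ligand of the product of Itgb1 and Itga5, both of which were also lower by label.

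Of the membrane partners and cytoskeletal linkers of CD44, 7 of 8 were tested, with Ezr and Ank3 called higher and Cd74 lower. Ezr, ezrin, which ties the CD44 tail to actin, averaged 360, 404, 135 and 101 CPM in MC010, MC011, MC654 and MC659 (1.70, SE 0.13, adjusted p = 5.64e-05 from edgeR). Ank3, an ankyrin, averaged 174, 130, 27.1 and 25.4 CPM (2.53, SE 0.12, adjusted p = 7.66e-06 from edgeR). Rdx and Nf2, of the same family of linkers as ezrin, were not called, and Msn, also of that family, was not analysed here. Cd74, the receptor chain that works with CD44 in response to Mif, had at most 2 counts per library under the label IRF8 KO and 13 to 29 under the label WT. Slc7a11, the cystine transporter subunit that variant CD44 can bind, averaged 128 CPM in MC010, 21.4 CPM in MC011, 29.4 CPM in MC654 and 35.4 CPM in MC659. It was not called by label (adjusted p = 0.165 from edgeR), and MC010 was called above each other line.

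None of the 4 proteases that shed or cut CD44 was called by label, nor any of the 4 tested splicing regulators. Adam10, the main sheddase, was between 169 and 190 CPM in the line means. Mmp14, a membrane-bound protease, had a log2 fold change of -0.19 (SE 0.05, adjusted p = 0.0201 from edgeR), under the fold threshold. Esrp2, which promotes epithelial splicing of Cd44, had 244 and 218 counts in MC011, 27 to 37 in the WT-labelled libraries, and 5 and 1 in MC010, and Esrp1 had at most 13 counts in any library.

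**Figure D4:**
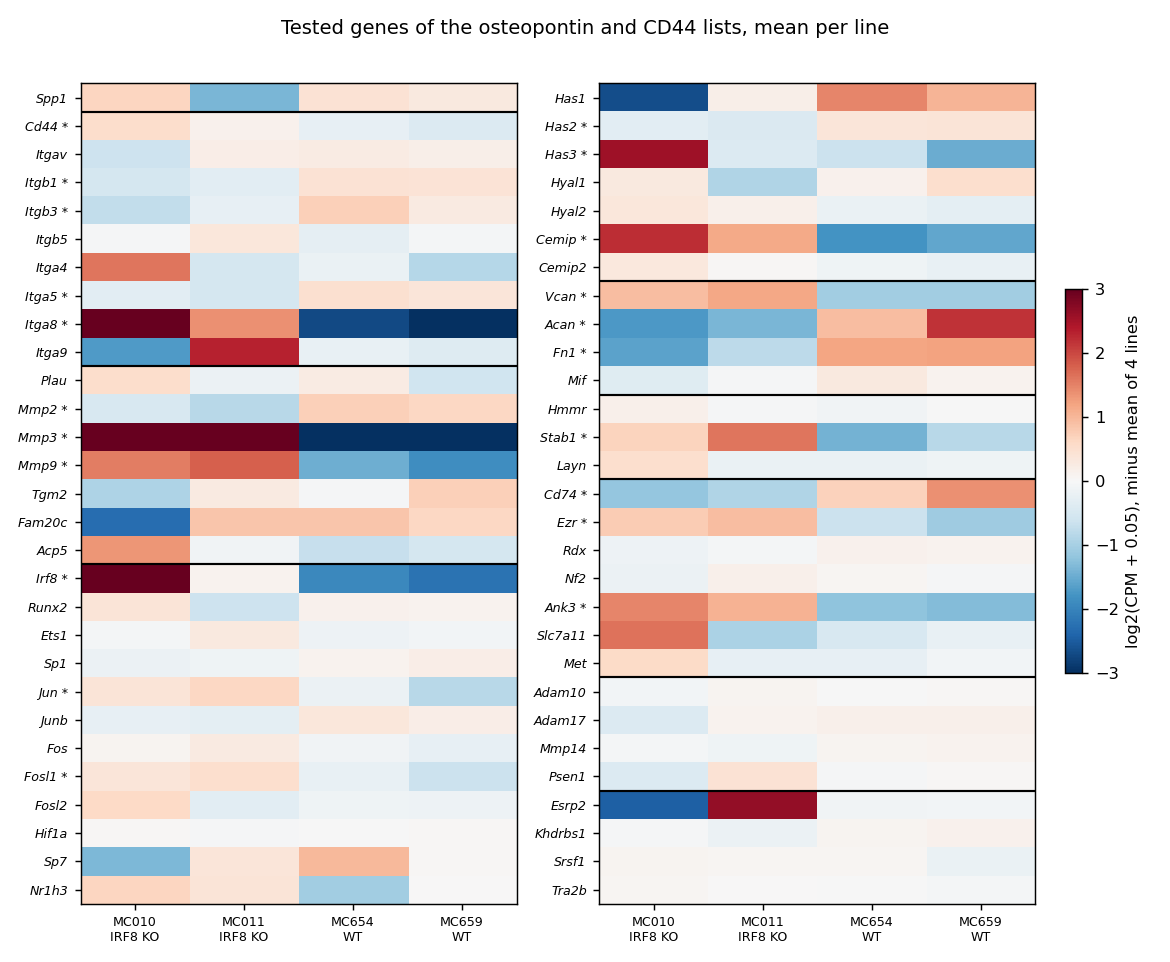
Line means of log2(CPM + 0.05) minus the mean of the 4 lines, for the tested genes of the 10 lists, with colors limited to 3 in either direction. Stars mark genes called by label and black rules separate the lists. Mmp3, Ank3, Ezr and Vcan are higher in both lines labelled IRF8 KO, whereas Spp1 and Runx2 are lowest in MC011.

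Spp1 belongs to a family of bone and tooth matrix phosphoproteins encoded side by side. Dmp1, its only relative in the table, had 478 and 249 counts in MC010, 27 and 7 in MC011, and at most 6 in the WT-labelled libraries, and did not pass the filter on low counts. The genes Ibsp, Dspp and Mepe were not analysed here. Of 8 osteoblast markers 3 were tested and none was called by label, and their summed level was 61.8 to 127 CPM under the label IRF8 KO and 99.8 to 107 CPM under the label WT. Runx2 makes up most of that sum. Of 10 leukocyte and macrophage markers, 4 were tested, with Cd14 and Mrc1 called higher and Csf1r lower, and the sums were 17.9 to 24.0 CPM and 16.5 to 16.8 CPM. In MC010, MC011, MC654 and MC659, Cd14 averaged 16.3, 11.2, 6.70 and 5.31 CPM and Cd68 6.36, 5.77, 8.59 and 9.60 CPM. Mrc1 averaged 0.396, 0.900, 0.184 and 0.118 CPM in the same order, and Csf1r 0.319, 0.378, 1.14 and 1.53 CPM. Ptprc averaged 0.167 CPM in MC010, 0.0179 CPM in MC654 and 0.0224 CPM in MC659, and was at 0 counts in both MC011 libraries. The part of these markers in the Cd44 difference was not tested. In bulk RNA fewer cells of a type and less RNA per cell cannot be told apart.

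Of 6 epithelial markers, 5 were tested, with Epcam and Krt19 called higher by label, and the sums were 39.2 to 567 CPM against 115 to 129 CPM. Krt8, a keratin of simple epithelia, averaged 284 CPM in MC010, 1.29 CPM in MC011, 20.04 CPM in MC654 and 37.5 CPM in MC659. Krt18, its keratin partner, averaged 264, 31.4, 108 and 80.5 CPM in the same order. Other members of the list ran the opposite way between MC010 and MC011. Epcam averaged 0.340 CPM in MC010 and 0.995 CPM in MC011, Krt19 1.49 and 6.04 CPM, and Cdh1 0.00874 and 0.311 CPM, each called lower in MC010. The part of these markers in the Spp1 difference was not tested. Of 9 fibroblast and mesenchymal markers, all tested, Pdgfra, Thy1 and S100a4 were called higher, and the sums were 8024 to 9361 CPM against 6643 to 8068 CPM. Vim makes up most of these sums. Of the other 6, none called by label, Vim, Pdgfrb and Fap were estimated higher and Col1a1 and Col1a2 lower. Col3a1 was near 0 (-0.01, SE 0.19). Col1a2 averaged 780, 246, 918 and 1245 CPM in MC010, MC011, MC654 and MC659 (-1.08, adjusted p = 0.0817 from edgeR). Thy1 averaged 12.3 CPM in MC010 and 70.2 CPM in MC011, against 9.23 CPM in MC654 and 12.4 CPM in MC659. Pdgfra averaged 445 CPM in MC011, 71.3 CPM in MC010 and at most 18.8 CPM in a WT-labelled line.

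Among 10688 tested genes with a mean log2 CPM of at least 1, those closest to Spp1 in centred log2 CPM over the 8 libraries were Glipr1 (root mean square difference 0.122, r = 0.988), D130017N08Rik (0.134), Zfp882 (0.154), Enox1 (0.160) and Klf5 (0.173). Those closest to Cd44 were Nmt2 (0.0214, r = 0.999), Arhgap44 (0.0486), Commd3 (0.0498), Aspscr1 (0.0534) and Topbp1 (0.0536). Glipr1 had a mean log2 CPM of 5.60 in MC010, 3.68 in MC011, 5.31 in MC654 and 5.50 in MC659. Nmt2 had 8.25, 7.87, 7.50 and 7.35. An r above 0.95 was reached by 260 genes for Spp1 and by 600 genes for Cd44. The libraries of a line share their tumor, so the 8 points are 4 pairs, and such likeness is a description of 4 lines.

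The neighbours of Spp1 on chromosome 5 did not all share its low level in MC011. Of 9 tested genes lying at least in part within 500 kb, the median of MC011 minus MC654 was -0.12, with 1 called higher and 3 called lower. In that contrast 29.7% of all tested genes were called in either direction, and 9 genes are too few to set against that share. Gm42793, which overlaps Spp1, was lower by -2.70, and Hsd17b11 was at 16.3 CPM in MC011 and 28.4 to 31.6 CPM in the other lines. Zfp951 was also called lower, at 1.62 CPM in MC011, and was at 0.243 CPM in MC010 and 11.4 and 12.9 CPM in the WT-labelled lines. Pkd2, the nearest gene downstream, was at 167 CPM in MC011, 86.3 CPM in MC010 and 109 to 119 CPM in the WT-labelled lines. Of 6 tested neighbours of Cd44, Pamr1 and Slc1a2 were called higher in both lines labelled IRF8 KO, from at most 0.107 CPM in the WT-labelled lines. In those contrasts 29.7% to 36.8% of all tested genes were called in either direction. Fjx1 was called lower in MC010 than in MC011 (-0.72) and than in MC654 (-0.60), the reverse of the direction of Cd44. Pdhx, Apip and Trim44 were not called in any contrast between lines, while Cd44 was called in 2 of 6.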

How the data were processed

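RNA of 4 cell lines (2 libraries each) was sequenced with a stranded mRNA kit. The authors aligned reads to mm10 (GRCm38.p6) and counted them per gene, and the submitters' processing notes name STAR 2.7.3a, HTSeq 0.11.2 and DESeq2. The strand setting of the counting is not given in the sources used here. The deposited raw counts were used. The deposited signal, each count divided by a size factor per library, was checked and not tested. The authors' own comparison (mean, fold change, error, Wald statistic and p-values) was not used. The table lists genes with 20 or more counts summed over the 8 libraries, and X- and Y-linked genes were not analysed here.

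Counts were analysed with edgeR 4.0.16 in R 4.3.3. filterByExpr by label kept 15153 of 18768 genes, counts were TMM-normalized, and the robust quasi-likelihood test was applied by label and, in a second fit, between lines. P-values were adjusted over all genes tested (Benjamini-Hochberg). Calls needed an adjusted p under 0.05 with an absolute log2 fold change over 0.59, the study's thresholds. Single values were also compared by exact permutation in scipy 1.17.1. Intervals of log2 differences are from edgeR and include the spread between libraries, whereas the counting error given for a library covers counting only. Coordinates and exon lengths came from GENCODE vM21, which held 18736 of the gene identifiers, 17726 of them at the same start and end. Promoters are RefSeq sequences of GRCm38.p6.

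Spp1 and Cd44, the 10 pathway lists and 4 marker lists were chosen with earlier results of these data known. By the rule for named genes, these genes could be named, with the 5 genes closest to each member in centred log2 CPM. Neighbouring genes, ranks, motifs and codons were chosen after values were seen, as description only. Alternatives were DESeq2 1.42.0, no filter, upper-quartile and median-of-ratios scaling, sums per line, limma 3.58.1 (voom) with a random term for the line, blocks for the library number or for pairs of lines, each library or line left out, and no fold threshold. The fits were tested on simulated counts.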

Additional observations from a re-analysis of the deposited data

Results flagged for a closer look

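Spp1 differed between the lines of the same label. MC010 minus MC011 was 2.01 on the log2 scale, with an adjusted p of 4.47e-14 from edgeR. MC010 lay above and MC011 below both WT-labelled lines. The other results stood out because a library lay far from the remaining 3 of its label. Sp1 was at 171 CPM in MC010 library 1, against 183 to 184 CPM in the others labelled IRF8 KO. Fos was at 7.14 CPM in MC659 library 1, against 8.89 to 8.97 CPM in the others labelled WT. Hif1a was at 203 CPM in MC654 library 1, against 215 to 217 CPM, and Mif was at 363 CPM in the same library, against 290 to 292 CPM. These were 4 of 156 groups of 4 libraries examined, and chance alone marks about 1 in 20 groups.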

How the results depend on the processing

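Of 265 alternative values for 17 results, 248 kept their direction and their side of the threshold, and counts stayed within 1.5 times. The ratio of Spp1 to Cd44 has no threshold, and its 13 alternatives are among the 248 for their direction only. By label, Spp1 turned to 0.26 without the line MC011 and reached -1.76 without MC010, past both thresholds. Cd44 lost its call with line sums (0.67, adjusted p = 0.160), without MC010 (0.45), without MC659 (0.59) and without MC010 replicate 2, and its adjusted p ranged from 1.52e-06 to 0.160 over 21 alternatives (edgeR, DESeq2 or limma). With line sums, edgeR called 0 pathway genes and 0 genes in all, with 22 and 3361 at an unadjusted p under 0.05. Limma-voom with a random term for the line, at a correlation of 0.828, called 9 pathway genes higher and 7 lower. Without MC011, 19 pathway genes were called higher and 15 lower, and with no fold threshold 13 lower. Dropping the fold threshold added Spp1 for MC010 minus MC654 (0.21) and MC659 (0.34), and Cd44 for MC010 minus MC011 (0.39), MC011 minus MC654 (0.39) and MC659 (0.54), and MC654 minus MC659 (0.16). The cause of these shifts was not tested. Leaving out each library gave -0.74 to -0.14 for Spp1 and 0.58 to 0.74 for Cd44 by label, -1.68 to -1.11 for their ratio, and 11 to 14 pathway genes higher and 8 to 10 lower. Same-numbered libraries did not deviate together (r of -0.027 to 0.055) and share only a number. Under a replicate block by library number, Spp1 was at -0.41 (adjusted p = 0.589 from edgeR), Cd44 at 0.67 (0.00691) and the pathway calls at 12 and 8. Other scalings moved the median of all genes by at most 0.022 in size. Depth did not limit Spp1 or Cd44, but genes such as Itga8, Mmp3, Irf8, Cd74 and Acan rest on few counts in their lower group.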
